A study of Mus musculus with 12 samples.

Results

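The cytochrome P450 3A genes and their regulator Nr1i2 were followed in mouse liver across 4 diet and compound groups. The 8 genes were found by symbol among the 50559 genes of the count tables. They are 7 Cyp3a genes (Cyp3a11, Cyp3a13, Cyp3a16, Cyp3a25, Cyp3a41a, Cyp3a44 and Cyp3a59) and Nr1i2, which encodes the pregnane X receptor (PXR). The list was chosen by a reader of earlier results of these data, and one of the measured values it was selected on is the lower Cyp3a11 in mice given compound C1. Fold changes and p-values of these genes are therefore a description of where each gene stood among all genes tested, and are no independent support.

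RNA came from the livers of C57BL/6N mice. The NCD group ate a normal chow diet, and the HFD group a high-fat diet with 60% of its energy from fat, each for 12 weeks. The HFD+C1 and HFD+C2 groups ate the high-fat diet and were injected intraperitoneally with C1 or C2 at 5 mg/kg per day for 12 weeks. No transgene or deletion is named, and all 4 groups share the strain. C1 and C2 are given by code only and are called CYP4A inhibitors in the study's title. Sex, age and any vehicle injection of the HFD mice are not given in the sources used here. Each group held 3 libraries labelled as biological replicates. The labels do not say that each came from its own mouse, so the p-values measure the spread between these samples.

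PXR is a nuclear receptor that is activated by drugs, bile acids and steroids. It pairs with the retinoid X receptor (Rxra) on DNA and switches on genes of drug clearance, with the Cyp3a genes as its best-known targets in liver. The CYP3A enzymes sit in the endoplasmic reticulum of hepatocytes and oxidise drugs, steroids and bile acids with electrons passed on by cytochrome P450 reductase (Por). Cyp3a11 is the main drug-metabolising member in the adult mouse liver, while Cyp3a41a and Cyp3a44 are known as female-predominant genes and Cyp3a16 as a fetal and neonatal one.

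Reads counted in genes ranged from 4281210 to 32124248 per library. Reads assigned to no gene made up 58.2% of NCD replicate 1 and 47.1% of HFD+C2 replicate 1. In the remaining 10 libraries they made up 27.3% to 40.7%. All 8 hepatocyte markers were detected in every group, with summed levels of 40827 to 86989 CPM (read counts scaled to a common library total, as counts per 1000000) in NCD and 73170 to 145550 CPM in the high-fat groups. In whole tissue, fewer cells of a type and less RNA per cell cannot be told apart. CPM here is relative to the reads counted in genes of the same library. A gene was tested when its mean reached 10 counts over the 6 libraries of a comparison, and called at an adjusted p under 0.05 over all genes tested (edgeR's quasi-likelihood test, Benjamini-Hochberg). Of the 8 genes, 5 reached that minimum: Cyp3a11, Cyp3a13, Cyp3a25, Cyp3a59 and Nr1i2.

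The 7 Cyp3a genes lie on chromosome 5 and Nr1i2 on chromosome 16. In the RefSeq annotation of GRCm38.p6, Cyp3a11 spans chr5:145854607-145879854, Cyp3a25 chr5:145977192-146009644 and Cyp3a59 chr5:146079208-146114978. Cyp3a13 stands apart at chr5:137892933-137925610, and Nr1i2 spans chr16:38248349-38294849. The submitters' processing notes name mm10. The count tables hold 1465 symbols of a kind (LOC118) of which the GRCm38.p6 annotation has 1, so the annotation used for counting may differ from this one.

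Stretches of DNA upstream of 5 of the genes are shown because they set Cyp3a11 beside 4 relatives. Cyp3a11 had the largest change of the tested members on the diet and under C1. Under C2 its log2 change was the smallest of theirs (-0.01). Each runs from 200 to 111 bases before the transcript start that the RefSeq promoter table uses, 5′ to 3′ on the gene's strand (build GRCm38.p6). That start can lie inside the gene span given above: by 0 bases for Cyp3a11 and Cyp3a41a, 17 for Cyp3a44, 26 for Cyp3a25 and 50 for Cyp3a59. For Cyp3a13 it lies 3991 bases inside, so the sequence before it is not shown. Capitals mark the nuclear receptor core sites AGTTCA and AGGTCA on either strand, where TGAACT and TGACCT are the same sites read on the other strand.
Cyp3a11 (chr5:145879965-145880054, minus strand): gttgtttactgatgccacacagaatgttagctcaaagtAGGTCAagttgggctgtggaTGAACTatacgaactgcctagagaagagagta
Cyp3a25 (chr5:146009729-146009818, minus strand): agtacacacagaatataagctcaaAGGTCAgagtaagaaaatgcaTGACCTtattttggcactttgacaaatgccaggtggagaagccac
Cyp3a59 (chr5:146079058-146079147, plus strand): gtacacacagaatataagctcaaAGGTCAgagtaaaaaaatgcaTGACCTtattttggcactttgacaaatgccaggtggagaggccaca
Cyp3a41a (chr5:145720247-145720336, minus strand): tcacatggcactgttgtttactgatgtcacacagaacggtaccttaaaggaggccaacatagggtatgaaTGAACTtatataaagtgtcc
Cyp3a44 (chr5:145805985-145806074, minus strand): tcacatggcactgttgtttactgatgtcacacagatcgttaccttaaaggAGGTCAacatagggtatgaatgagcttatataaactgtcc

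Over the full 250 bases before that start, Cyp3a11 held 1 AGGTCA site and 1 AGTTCA site. Cyp3a25 and Cyp3a59 each held 2 AGGTCA sites, 1 on each strand, and their upstream sequences were 94.8% identical. Cyp3a41a and Cyp3a44 were 94.4% identical, and in them Cyp3a41a holds AGTTCA where Cyp3a44 holds only AGGTCA, at a different position. The site AGGTCA was found upstream of 4 of the 8 genes and in 13.8% of all 27025 RefSeq promoters, and AGTTCA upstream of 2 of the 8 and in 11.9%. Paired forms of the core sites were searched as well on both strands, as exact matches only. They were direct repeats of each site with 3 bases between the copies, and everted repeats of TGAACT, 6 bases, then AGGTCA or AGTTCA. Everted pairs of AGGTCA with itself and pairs with a mismatch were not searched. Each paired form holds core sites that the single searches also count. None of the 8 genes held an exact match to a searched paired form in this window, and at most 2 of the 27025 promoters held any one of them. With matches that rare, their absence cannot show that a gene lacks a paired site.

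Sequence sharing between the transcripts sets how well reads can be assigned. In the longest protein-coding transcript, none of the 50-base windows of Cyp3a13 or Nr1i2 occurred in another gene. For Cyp3a11, 14.8% did, most often in Cyp3a41a (6.32%), and for Cyp3a16 10.7% did, most often in Cyp3a11. For Cyp3a25, 26.8% of windows were shared, nearly all with Cyp3a59, and for Cyp3a59 28.0% were. For Cyp3a41a, 98.6% were shared, most with Cyp3a41b, and for Cyp3a44 26.5%. This sharing makes the values of Cyp3a11, Cyp3a16, Cyp3a25, Cyp3a59, Cyp3a41a and Cyp3a44 uncertain. The window length was a choice, so the shares of windows do not measure how far the counts are off. The tables hold multi-mapping reads (5.17% to 7.50% of each library) and ambiguous reads (3.91% to 9.04%) in rows of their own, so reads counted there are missing from the genes' values. How many of them came from Cyp3a genes was not tested.

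Nr1i2, the receptor gene, did not pass the test in any comparison. The HFD libraries held 42.3, 53.7 and 42.1 CPM. With C1 the libraries held 39.2, 45.2 and 43.0 CPM, and with C2 49.0, 50.7 and 52.8 CPM. In NCD the 3 libraries held 19.7, 73.6 and 45.3 CPM, a wider spread than in any other group, so NCD holds both the lowest and the highest value of all 12 libraries. The log2 change of HFD against NCD was 0.20 (SE 0.41, 95% interval -0.74 to 1.14, adjusted p = 0.776), and -0.19 without NCD replicate 1. HFD+C1 against HFD gave -0.13 (SE 0.12, interval -0.40 to 0.13), and HFD+C2 against HFD gave 0.19 (SE 0.15, interval -0.15 to 0.53). Neither interval reaches a change of 1 on the log2 scale in either direction.

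Cyp3a11 fell on the high-fat diet. Its level was 3204, 4663 and 4905 CPM in NCD and 888, 729 and 983 CPM in HFD. The lowest chow library stood above the highest high-fat library by more than the range of the HFD group. The mean was 4258 ± 920 CPM in NCD and 867 ± 128 CPM in HFD (SD, n = 3), and edgeR put HFD 4.27-fold lower (log2 change -2.09, SE 0.27, adjusted p = 0.00927). By p-value the gene ranked 55 of 13864 genes. Without HFD replicate 1 the adjusted p was 0.101, and without HFD replicate 3 it was 0.0762, with log2 changes of -2.13 and -2.18.

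Cyp3a11 fell further in mice given C1. The HFD+C1 libraries held 315, 373 and 508 CPM, all below the lowest HFD library at 729 CPM. The mean of 399 ± 98.7 CPM (SD, n = 3) was 2.22-fold below HFD in the fit (log2 change -1.15, SE 0.17, interval -1.53 to -0.77, adjusted p = 0.0377). It ranked 6 of 13358 genes by p-value. The call was lost when HFD replicate 1, HFD replicate 3, HFD+C1 replicate 1 or HFD+C1 replicate 2 was left out (adjusted p = 0.279, 0.157, 0.195 and 0.0799). It was also lost with a minimum of 50 counts (adjusted p = 0.0605) and when all 12 libraries were fitted together (adjusted p = 1), while the log2 change stayed between -1.3455 and -1.0037 in these and the other alternatives.

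Cyp3a11 in mice given C2 overlapped with HFD. The HFD+C2 libraries held 1036, 896 and 536 CPM, so replicate 1 was above and replicate 3 below all 3 HFD libraries. The mean was 823 ± 258 CPM (SD, n = 3), and the log2 change against HFD was -0.01 (SE 0.30, interval -0.68 to 0.66, adjusted p = 0.998). The C1 and C2 comparisons share their HFD libraries. The change was 0.27 without HFD+C2 replicate 3 and -0.27 without HFD+C2 replicate 1, the library with the high share of reads in no gene.

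**Figure D1:**
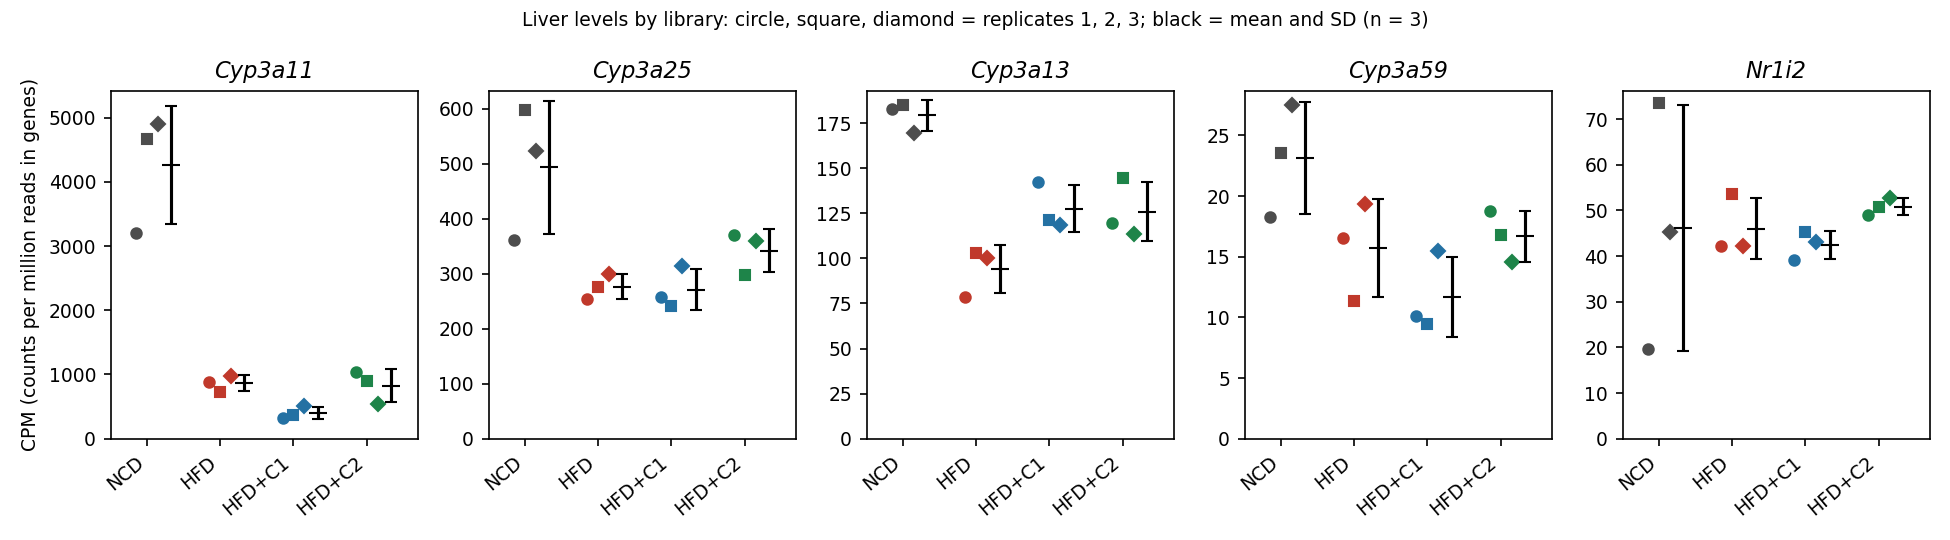
CPM (vertical axis, linear from 0, a separate scale per gene) of the 5 genes above the count minimum in each library of NCD, HFD, HFD+C1 and HFD+C2; circles, squares and diamonds are replicates 1, 2 and 3, and black bars give the mean and SD (n = 3). Cyp3a11 stands at 3204 to 4905 CPM in NCD and at 315 to 508 CPM in HFD+C1, while Nr1i2 overlaps between NCD and every other group.

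Cyp3a13, a CYP3A gene outside the main cluster that is also known from the intestine, was lower on the diet and was not called under either compound. Its changes were not tested against those of Cyp3a11. It held 183, 185 and 170 CPM in NCD and 78.7, 103 and 100.4 CPM in HFD, with no overlap. The fall on the diet was called, with a log2 change of -0.72 (SE 0.17, adjusted p = 0.046). HFD+C1 libraries held 142, 121 and 119 CPM and HFD+C2 libraries 120, 144 and 114 CPM, and all 6 lay above the highest HFD library and below the lowest NCD library. Neither difference from HFD passed the test: the log2 change was 0.42 for C1 (SE 0.13, adjusted p = 0.392) and 0.47 for C2 (SE 0.18, adjusted p = 0.695). Without a filter on low counts the diet call was lost (log2 change -0.54, adjusted p = 0.138). It held in 1 of 6 fits with a library left out, the one without NCD replicate 1, and in the others the adjusted p was 0.061 to 0.23.

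Intestinal epithelium markers, read beside Cyp3a13, summed to 94.0 to 99.3 CPM in NCD and 270.4 to 391 CPM in HFD, where Cyp3a13 was lower. With C1 they summed to 229 to 269 CPM and with C2 to 227 to 743 CPM. Cdx2, Lct and Cdh17, which define that tissue, were at or under a mean of 3 counts in every group. Fabp2, an intestinal fatty acid binding protein also made in liver, was the only one of 5 markers above that mean in the high-fat groups.

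Cyp3a25 was lower in every HFD library than in every NCD library, without passing the test. Its CPM was 361, 597 and 523 in NCD and 254, 275 and 300 in HFD. The log2 change was -0.64 (SE 0.24, adjusted p = 0.129), and it was called without NCD replicate 1 (log2 change -0.86, adjusted p = 0.00215) and by DESeq2 (adjusted p = 0.0492). HFD+C1 gave 258, 242 and 313 CPM, which overlapped with HFD (log2 change -0.05, interval -0.32 to 0.22). HFD+C2 gave 370, 297 and 360 CPM, with 2 of 3 libraries above all HFD libraries (log2 change 0.36, SE 0.18, adjusted p = 0.696).

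Cyp3a59, the near relative of Cyp3a25, was the lowest of the tested Cyp3a genes. It held 18.3, 23.6 and 27.5 CPM in NCD and 16.6, 11.3 and 19.3 CPM in HFD. With C1 its CPM was 10.1, 9.45 and 15.5, and with C2 18.8, 16.8 and 14.5. Neighbouring groups overlapped in each case. The log2 change was -0.35 on the diet (adjusted p = 0.42). Relative to HFD it was -0.47 under C1 (SE 0.22, adjusted p = 0.644) and 0.13 under C2 (adjusted p = 0.888).

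The 3 remaining members were at the detection limit. A floor of 3 counts corresponds to 0.0934 to 0.701 CPM across the libraries and covers counting error only. Cyp3a16 had 1, 1 and 0 counts in NCD and 0 in the other 9 libraries. Cyp3a41a had 4, 0 and 2 counts in NCD and at most 2 in any other library. Cyp3a44 had at most 3 counts, in HFD+C2 replicate 1. No difference in these genes between groups was detectable at this depth. The 6 further Cyp3a symbols in the tables, 2 genes and 4 pseudogenes, were also low: Cyp3a41b had 20 counts in NCD replicate 1 and 0 elsewhere, Cyp3a57 at most 2, Cyp3a58-ps 58 in NCD replicate 1 and 14 or fewer elsewhere, Cyp3a63-ps at most 16, and Cyp3a60-ps and Cyp3a61-ps1 at most 3.

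Per kilobase of transcript, the order of levels was the same in all 4 groups: Cyp3a11, Cyp3a25, Cyp3a13, Nr1i2, Cyp3a59. The group means in NCD were 1816, 247, 60.7, 18.1 and 11.6 CPM per kb. In NCD, Nr1i2 (7.71 to 28.8 CPM per kb) and Cyp3a59 (9.18 to 13.8) did not differ beyond their spread. In HFD they did not overlap, at 16.5 to 21.0 and 5.70 to 9.71 CPM per kb. Cyp3a11 and Cyp3a25 came closest in HFD+C1, with means of 170.0 and 136 CPM per kb, where the lowest Cyp3a11 library (134) lay below the highest Cyp3a25 library (157).

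The make-up of the Cyp3a reads differed between the groups. Cyp3a11 supplied 85.1%, 85.3% and 87.2% of the reads of the 7 Cyp3a genes in NCD and 71.8%, 65.2% and 70.1% in HFD. It supplied 43.4%, 50.02% and 53.1% in HFD+C1, below every HFD library, and 67.1%, 66.2% and 52.3% in HFD+C2. The ratio of Cyp3a11 to Cyp3a25 reads does not depend on how libraries are scaled, though it includes the uncertainty of both genes from shared sequence. It was 8.88, 7.81 and 9.38 in NCD and 3.50, 2.65 and 3.28 in HFD. The HFD+C1 ratios of 1.22, 1.54 and 1.62 lay below all HFD ratios, and the HFD+C2 ratios of 2.80, 3.02 and 1.49 spanned the gap between those 2 groups, with replicate 3 among the C1 values. Summed over the 7 genes, the level was 3767 to 5625 CPM on chow and 1119 to 1402 CPM on the high-fat diet alone. It was 726 to 955 CPM with C1 and 1024 to 1544 CPM with C2. These shares and ratios were read from the values that chose the list and carry no test.

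**Figure D2:**
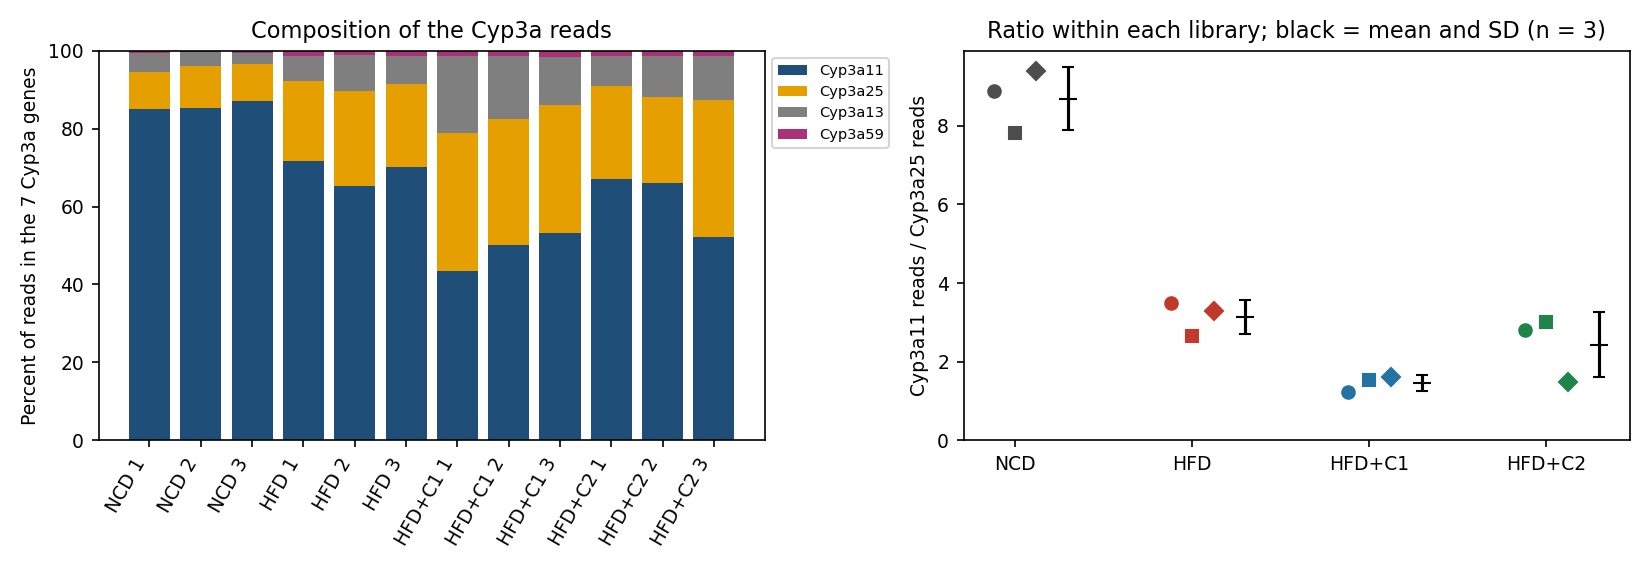
Left, the percent of reads in the 7 Cyp3a genes that fell in Cyp3a11, Cyp3a25, Cyp3a13 and Cyp3a59 in each of the 12 libraries (stacked bars from 0 to 100%); right, the ratio of Cyp3a11 to Cyp3a25 reads in each library, with the mean and SD (n = 3) in black. Cyp3a11 takes 85.1% to 87.2% in NCD and 43.4% to 53.1% in HFD+C1, and the ratio runs from 9.38 down to 1.22.

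Counted over the tested members, the diet comparison called 2 of 5 (Cyp3a11 and Cyp3a13), both lower, where 3.44% of all 13864 genes were called lower and 6.03% in either direction. Of the 5, 3 had lower, non-overlapping CPM values in HFD, where 27% of all genes did. HFD+C1 against HFD called 1 of 5, Cyp3a11, against 0.0524% of all genes (7 of 13358, all lower). Cyp3a11 was lower and Cyp3a13 higher without overlap, as were 5.54% and 6.6% of all genes in each direction. HFD+C2 against HFD called 0 of 5 by edgeR and 0 by DESeq2, with 1 of 5 at an unadjusted p under 0.05, against 0.0222% of all genes called. Cyp3a13 alone was higher without overlap, as were 4.58% of all genes. Since lower Cyp3a11 under C1 was known when the list was made, nothing is read from that count. DESeq2 called 16.6% of all genes for the diet, 0.576% under C1, 0.259% under C2 and 0.0227% for C2 against C1. The unadjusted p of edgeR was under 0.05 for 28.9%, 7.75%, 6.89% and 4.6% in that order. Of the 5 members, DESeq2 called 3, 1, 0 and 0, and the unadjusted p was under 0.05 for 3, 3, 1 and 4.

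The compounds were compared with each other at their common dose, as 1 pair. No gene of 13229 passed the test in HFD+C2 against HFD+C1 by edgeR (0%), 608 had an unadjusted p under 0.05, and DESeq2 called 3. All 3 HFD+C2 libraries had more Cyp3a11 (536 to 1036 CPM) than all 3 HFD+C1 libraries (315 to 508 CPM). The log2 difference was 1.15 (SE 0.31, interval 0.44 to 1.86), at an unadjusted p of 0.00508 and an adjusted p of 0.841 by edgeR. Without a filter on low counts the adjusted p was 0.000447. The difference was 0.88 without HFD+C2 replicate 1 and 1.42 without HFD+C2 replicate 3.

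Nr1i2 was also higher without overlap in HFD+C2 than in HFD+C1, with a log2 difference of 0.34 (SE 0.14, interval 0.02 to 0.65, adjusted p = 0.841). These were 2 of 5 members, where 4.09% of all genes were higher without overlap. Cyp3a25 differed by 0.42 (interval 0.00 to 0.84) and Cyp3a59 by 0.61 (interval 0.09 to 1.13), both at an adjusted p of 0.841 and with overlapping groups. Cyp3a13 differed by 0.07 (interval -0.33 to 0.46), so differences of more than 0.46 on the log2 scale in either direction lay outside its interval. At these intervals neither a shared nor a different response of the other members can be stated.

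**Figure D3:**
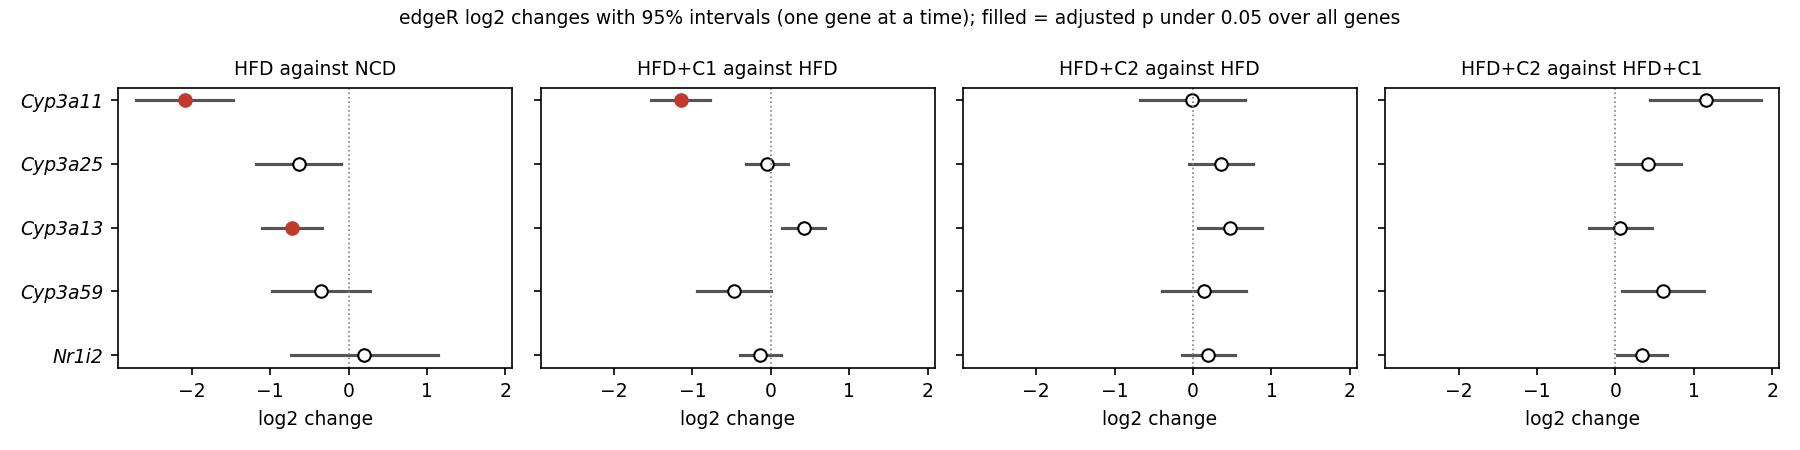
Log2 changes from edgeR (horizontal axis) with 95% intervals for the 5 tested genes in each of the 4 comparisons; filled points have an adjusted p under 0.05 over all genes. Filled points are Cyp3a11 and Cyp3a13 for HFD against NCD and Cyp3a11 for HFD+C1 against HFD, and the Cyp3a11 interval for HFD+C2 against HFD runs from -0.68 to 0.66.

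The partners, relatives and coregulators of PXR were given by a list of 25 genes, of which 24 were tested. None was called in any of the 4 comparisons by edgeR. The unadjusted p was under 0.05 for 5 genes on the diet, 4 under C1, 5 under C2 and 2 in C2 against C1, and DESeq2 called 2, 1, 2 and 0. Over all genes the shares with such a p were 28.9%, 7.75%, 6.89% and 4.6%, and DESeq2 called 16.6%, 0.576%, 0.259% and 0.0227%. Whether the list differs from all genes was not tested. Median log2 changes were 0.22, 0.02, -0.01 and -0.05 in that order, beside -0.02, 0.01, 0.02 and 0.01 over all genes tested. Rxra, the partner of PXR on DNA, held 183 to 270.1 CPM in NCD and 211 to 221 CPM in HFD, with a log2 change of 0.19 (SE 0.18, adjusted p = 0.497). Nr1i3, the constitutive androstane receptor and nearest relative of PXR, gave 0.53 (SE 0.31, adjusted p = 0.277). Hnf4a, a hepatocyte factor needed for Cyp3a expression, held 100.2, 279 and 201 CPM in NCD and 284, 343 and 277 CPM in HFD (log2 change 0.83, adjusted p = 0.161). The most abundant gene of the list was Hsp90ab1, a chaperone that holds receptors in the cytoplasm, at -0.09 (adjusted p = 0.77).

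Under C2 the genes of this list with the smallest p were Foxa2, Cebpb and Nr1h4, picked out after their values were seen. EdgeR called none of them under either compound, and DESeq2 called Foxa2 under both (adjusted p = 0.0305 for C1 and 0.000103 for C2) and Cebpb under C2 (adjusted p = 0.0115). The other values here are from edgeR. Foxa2, a pioneer factor of hepatocytes, held 39.1, 43.7 and 35.6 CPM in HFD, 29.9, 19.3 and 29.1 CPM with C1, and 10.8, 16.2 and 21.6 CPM with C2. Both compound groups lay below HFD without overlap. The log2 change was -0.62 under C1 (SE 0.15, adjusted p = 0.237) and -1.26 under C2 (SE 0.20, unadjusted p = 0.000136, rank 7 of 13503 genes, adjusted p = 0.262). Cebpb, a transcription factor of the acute phase response, gave -0.54 under C1 (adjusted p = 0.439, overlapping) and -1.07 under C2 (SE 0.22, adjusted p = 0.625, no overlap). Nr1h4, the bile acid receptor FXR, was higher without overlap under both compounds, at 0.36 under C1 (SE 0.12, adjusted p = 0.439) and 0.65 under C2 (SE 0.19, adjusted p = 0.695).

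Other genes linked to PXR changed in both directions on the diet. Of 18 listed, 17 were tested for the diet, of which 7 were higher and 10 lower. By edgeR 4 fell and 1 rose, where 3.44% of all genes were called lower and 6.03% in either direction, and DESeq2 called 7, where it called 16.6% of all genes. The median log2 change was -0.22 beside -0.02 over all genes. Cyp2b10, a drug-metabolising P450 that answers to both PXR and Nr1i3, fell from 20.4, 22.9 and 20.4 CPM in NCD to 0.809, 0.249 and 0.556 CPM in HFD (log2 change -5.05, SE 0.38, adjusted p = 0.00174). Ces2a, a carboxylesterase that opens ester drugs, fell from 836, 603 and 708 CPM to 124, 123 and 130 CPM (log2 change -2.29, adjusted p = 0.0021). All chow libraries were several times above all high-fat libraries for both genes.

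Cyp2c55 fell from 12.9 to 18.2 CPM in NCD to 1.46 to 2.60 CPM in HFD (log2 change -2.78, adjusted p = 0.00395). Por, the reductase that hands electrons to every microsomal P450, fell from 174, 228 and 156 CPM to 62.9, 82.3 and 70.6 CPM (log2 change -1.16, adjusted p = 0.0254). Without HFD replicate 1, 2 or 3 in turn, the call for Por was lost, with adjusted p up to 0.194. Cd36, a fatty acid transporter, rose from 29.5, 38.3 and 28.9 CPM to 119, 99.9 and 126 CPM (log2 change 2.06, adjusted p = 0.00431). The 2 most abundant genes of the list, Aldh1a1 and Gstm1, gave -0.77 (adjusted p = 0.0532) and 0.56 (adjusted p = 0.231).

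Under C1 and C2 none of these 17 genes was called by edgeR or DESeq2, with 3 at an unadjusted p under 0.05 in each comparison. The medians were 0.08 for C1 and 0.03 for C2, beside 0.01 and 0.02 over all genes. Cyp2b10 was at 0.442 to 1.59 CPM in HFD+C1 and 0.292 to 0.895 CPM in HFD+C2, overlapping with HFD in both. Ces2a gave a log2 change of 0.08 under C1 (interval -0.16 to 0.32), and Por gave 0.23 (interval -0.04 to 0.50). The lowest values of the list under C1, picked out after they were seen, were those of Gsta1, a glutathione transferase, at -1.03 (interval -2.01 to -0.05, adjusted p = 0.633, overlapping), and Abcb1b, a drug efflux pump, at -0.86 (interval -1.78 to 0.05, adjusted p = 0.678, no overlap). Both genes were scarce, with means of 3.04 and 0.643 CPM in HFD. These values lie beside the Cyp3a11 change of -1.15 in the same libraries. Whether Cyp3a11 differs from the list was not tested.

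**Figure D4:**
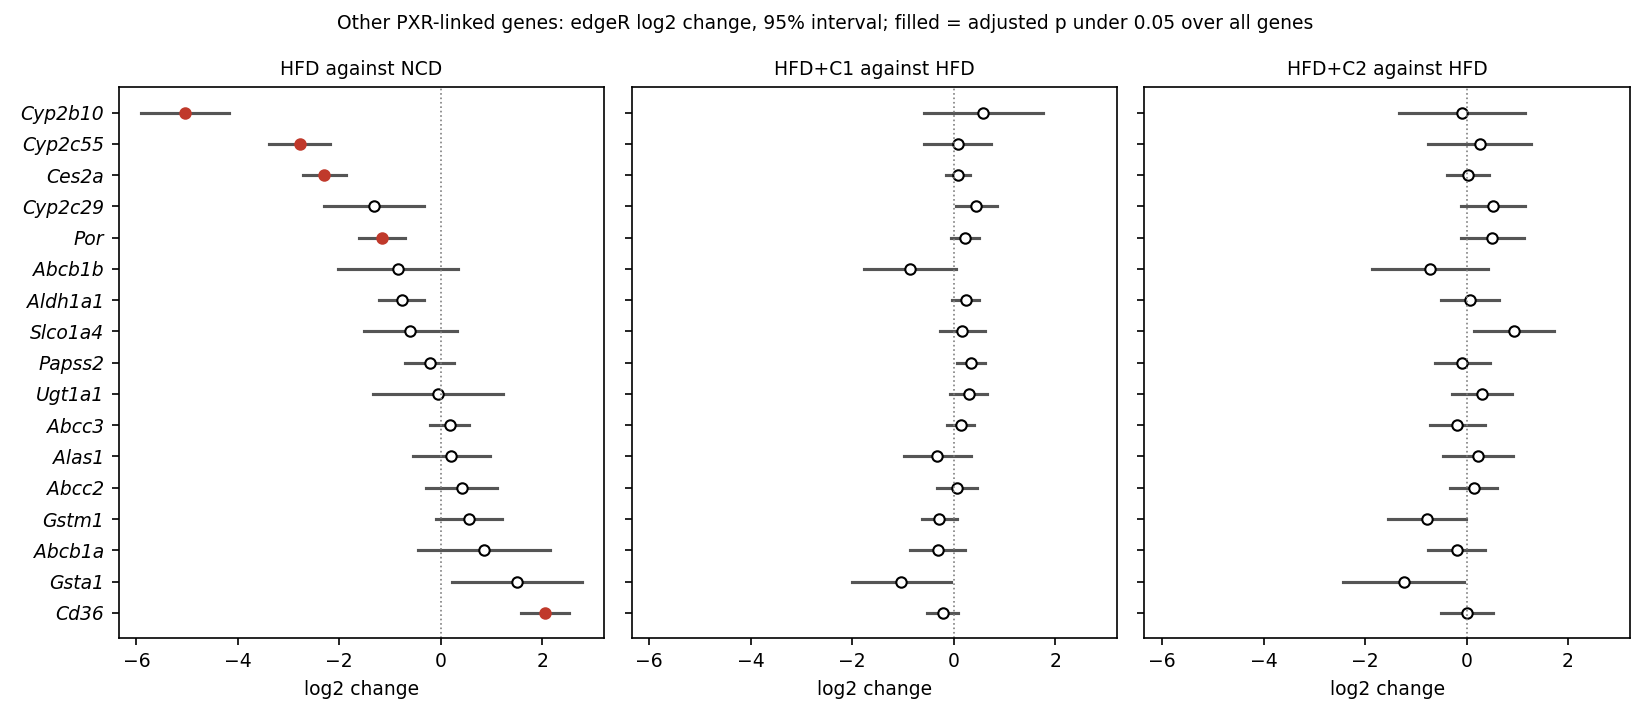
Log2 changes from edgeR (horizontal axis, the same scale in each panel) with 95% intervals for 17 other genes linked to PXR, for the diet (left), C1 (middle) and C2 (right); filled points have an adjusted p under 0.05 over all genes. In the diet panel Cyp2b10, Cyp2c55, Ces2a and Por are filled below 0 and Cd36 above 0, and no point is filled in either compound panel.

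Of 14 genes for P450 electron transfer and haem supply, Por was the only one called, and only for the diet, where 6.03% of all genes were called. A single call among 14 is near that share, so nothing is read from it about the list. The median log2 change of the list was -0.02, 0.04, 0.10 and 0.04 in the 4 comparisons. DESeq2 called 4 for the diet and 0 elsewhere, and the unadjusted p was under 0.05 for 6, 1, 0 and 1 genes. Over all genes DESeq2 called 16.6% for the diet, and 28.9%, 7.75%, 6.89% and 4.6% had such a p. Whether the list differs from all genes was not tested. Pgrmc1, a haem-binding partner of P450 enzymes, gave -0.75 for the diet (adjusted p = 0.0697), and Cyb5a, cytochrome b5, gave 0.84 (adjusted p = 0.0888).

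Because several Cyp3a genes differ between the sexes, lists of sex-dependent liver genes were read beside them. Of 17 male-predominant genes tested for the diet, 16 were lower and 5 fell (Cyp7b1, Elovl3, Serpina1e, Ugt2b38 and Gstp1), with a median log2 change of -1.28 beside -0.02 over all genes tested, of which 48.5% were higher and 3.44% were called lower. Of 9 female-predominant genes tested of 15 listed, Cyp2b9, Cyp2b13 and Hao2 rose by 3.87, 4.97 and 2.50 on the log2 scale, and the list's median was 0.79. Cyp2c40 fell by 3.83 and Cyp2c69 fell by 3.02. Single libraries moved these values. HFD replicate 2 held more of several male-predominant genes than the other 2 HFD libraries, with 398, 1671 and 362 CPM of Serpina1e and 13.9, 214 and 13.3 CPM of Hsd3b5, a gene named after its values were seen. Without that library the log2 change was -4.02 for Serpina1e (from -2.99) and -5.51 for Ugt2b38 (from -3.69). Cyp2c40 held 17.4, 3.27 and 4.10 CPM in NCD, and its change was -2.81 without NCD replicate 1. Cyp2b13 was at 1, 4 and 19 counts in NCD, and its change was 4.47 without NCD replicate 1 and 5.77 without NCD replicate 3. With HFD replicate 1 or HFD replicate 3 left out, the calls of all these genes but Cyp2b13 were lost, at log2 changes of the same direction and adjusted p of 0.0534 to 0.212. Cyp2c40, Cyp2c69 and Hao2 were also lost without HFD replicate 2, Ugt2b38 without NCD replicate 2 and Serpina1e without NCD replicate 3. Cyp3a41a and Cyp3a44, also known as female-predominant, stayed at the detection limit in the same HFD libraries. The abundant Mup20, a major urinary protein gene, gave 0.03 (adjusted p = 0.931). No gene of either list was called by edgeR under C1, C2 or in C2 against C1, with 1 or 2 genes per list at an unadjusted p under 0.05 and DESeq2 calling 1 gene of each list under C2 and 0 in the other 2 comparisons. Ddx3y, on the Y chromosome, was present in all 12 libraries at 19.5 to 55.1 CPM. Xist, made from the inactive X, reached 3.04 CPM in NCD replicate 1 (30 counts) and at most 0.302 CPM elsewhere. Both genes were added after their values were seen.

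The gene whose level followed Cyp3a11 most closely over the 12 libraries was Malat1, a long non-coding RNA that stays in the nucleus (Pearson's r = 0.955 of log2(CPM + 1), among 10133 genes that averaged 50 counts or more). Within the 9 high-fat libraries r was 0.808. Malat1 held 1192, 1007 and 1087 CPM in NCD and 394, 342 and 472 CPM in HFD. With C1 it held 281, 245 and 222 CPM, and with C2 524, 334 and 341 CPM. It fell on the diet (log2 change -1.23, adjusted p = 0.0224) and gave -0.72 under C1 (adjusted p = 0.136), again without overlap. Reads outside annotated features moved the same way for the diet, at 8.58% to 23.2% of reads in NCD and 4.92% to 6.84% in HFD. Under C1 they were 4.30% to 5.67%, overlapping with HFD. The part of nuclear or unspliced RNA in the Cyp3a11 result was not tested.

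The next 4 genes by likeness to Cyp3a11 were Cyp2c67 (r = 0.926), Gm46110 (0.924), Gsta4 (0.922) and Gm4956 (0.912). Within the high-fat libraries their r was 0.52, 0.724, 0.397 and 0.66. Nr1i2 was most like Vrk2 (0.959), Asap3 (0.942), Hdac1 (0.941), Dhodh (0.939) and Ndel1 (0.939). Cyp3a41a was below the count minimum. Nr1i2 and Cyp3a11 had r = -0.049 over the 12 libraries and 0.332 within the 9 high-fat ones. Cyp3a11 and Cyp3a59 had r = 0.865 in all 12 and 0.84 in the 9 high-fat libraries. For Cyp3a11 and Cyp3a25 r was 0.84 and 0.407, and for Cyp3a11 and Cyp3a13 it was 0.605 and -0.441. These correlations mix groups and share library depth, and are given as descriptions.

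Markers of other liver cells were read beside the compound results. Kupffer cell and macrophage markers summed to 124 to 174 CPM in HFD, and reached 217 to 274 CPM with C1 and 169.7 to 348 CPM with C2. All 6 were higher under each compound (median log2 changes 0.75 and 0.75), with none called by edgeR, 6 and 4 at an unadjusted p under 0.05, and 4 and 0 called by DESeq2. Over all genes, 7.75% under C1 and 6.89% under C2 had such a p, and DESeq2 called 0.576% and 0.259%. Hepatocyte markers summed to 91162 to 111570 CPM in HFD and 105910 to 114640 CPM in HFD+C1, sums that Alb dominates. Of these 8 markers 6 were higher and 2 lower under C1, with log2 changes of -0.23 to 0.43 and 0 called by edgeR or DESeq2, and 1 at an unadjusted p under 0.05. Erythroid markers were 260 to 364 CPM in HFD and 187 to 301 CPM in HFD+C1, with 5 of 5 lower, 0 called by edgeR, 1 by DESeq2 and 3 at an unadjusted p under 0.05. Of the lymphocyte, endothelial, stellate cell and cholangiocyte markers, none was called under either compound by edgeR or DESeq2. Under C1 the unadjusted p was under 0.05 for 0 of 4, 0 of 5, 1 of 5 and 1 of 5 tested, in that order. Under C2 such a p was found for 3 of 3, 1 of 5, 2 of 5 and 0 of 5. The 3 lymphocyte markers tested under C2 were 2 higher and 1 lower, with log2 changes of -1.13 to 1.00. On the diet Col1a1, a collagen gene of stellate cells, rose by 2.58 on the log2 scale, the only 1 of 5 stellate cell markers called. Of the 5, 3 were higher and 2 lower, with a median log2 change of 0.09. Their summed levels overlapped, at 77.7 to 98.1 CPM in NCD and 72.0 to 101 CPM in HFD. The part of cell make-up in the Cyp3a11 result was not tested.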

How the data were processed

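RNA was measured in 12 mouse liver libraries, 3 in each of 4 groups. The authors deposited read counts per gene in 3 tables that share their HFD columns (0 differing cells). The deposited values are whole numbers with unequal totals, although the tables are called normalized, and were treated as raw counts. The submitters' processing notes name Trimmomatic 0.39, STAR 2.7, DESeq2 and mm10, with no roles. The counting rule and use of strand are not given in the sources used here. 4 rows that name no gene (27.3% to 58.2% of reads) were left out of library sizes and tests, and 0 value columns were unmapped.

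Each comparison was fitted on its own 6 libraries with edgeR 4.0.16 in R 4.3.3 (TMM scaling, quasi-likelihood test, mean of at least 10 counts, Benjamini-Hochberg over all genes tested, call under 0.05). Intervals are 95% intervals of 1 gene at a time. The fit was tested on simulated data. Alternatives were median-ratio and total count scaling, DESeq2 1.42.0, no filter, a minimum of 50 counts, a fit of all 12 libraries, a replicate block, and leaving out each library. Promoter sequences and gene positions are from RefSeq (GRCm38.p6), and all 8 genes matched. Transcripts are from GENCODE M21.

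The members, gene lists and tests were chosen with earlier results of these data known. Genes named are the members, every other Cyp3a row, the called and the 2 most abundant genes of each pathway list, and the 5 genes most like Cyp3a11, Cyp3a41a and Nr1i2. Rxra, Nr1i3, Foxa2, Cebpb, Nr1h4, Gsta1, Abcb1b, Hsd3b5, Ddx3y, Xist and the cell type markers named (Alb, Cdx2, Lct, Cdh17, Fabp2, Col1a1) fall outside this rule and were chosen after their values were seen.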

Additional observations from a re-analysis of the deposited data

Results flagged for a closer look

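Multi-mapping reads, which the comparisons did not use, stood apart between the diet groups. They made up 7.34% of HFD replicate 1, 7.50% of replicate 2 and 7.28% of replicate 3, each above the 5.54% to 6.28% of the NCD libraries. How this bears on Cyp3a genes that share sequence, such as Cyp3a25 with Cyp3a59, was not tested. Groups of 3 are too small for the search for single outlying libraries.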

How the results depend on the processing

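The number of genes called depended on the method, and the cause was not tested. For HFD against NCD (836 genes), DESeq2 called 2298, no filter 4493, a minimum of 50 counts 524, a fit of all 12 libraries 2418, and leaving out 1 library 23 to 1838. Total count scaling called 1105, of which 21.8% were higher (42.9% with TMM), and moved the median of all genes from -0.02 to -0.24. Members called for the diet (2) were 1 with no filter and 0 to 3 with 1 library left out. For C1 (7 genes), DESeq2 called 77, no filter 206, all 12 libraries 0 (313 at an unadjusted p under 0.05), and leaving out 1 library 2 to 102. The 1 member called became 0 with a minimum of 50 counts, 0 with all 12 libraries, and 0 to 1 with 1 library left out. For C2 (3 genes), DESeq2 called 35, no filter 152, all 12 libraries 0 (728 unadjusted), and leaving out 1 library 0 to 27. For C2 against C1 (0 genes), DESeq2 called 3, no filter 162 with 1 member, and leaving out 1 library 0 to 1.

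Small changes that were never called turned direction. Nr1i2 for the diet was -0.19 without NCD replicate 1 (range -0.1858 to 0.6909 with a library left out). Cyp3a25 under C1 was 0.0103 without HFD replicate 3 and 0.0107 when HFD+C1 replicate 2 was dropped (range -0.1552 to 0.0107). Cyp3a11 under C2 was 0.0018 with a minimum of 50 counts and 0.0352, 0.0973 and 0.2681 without HFD replicate 1, HFD replicate 3 and HFD+C2 replicate 3 (range -0.2714 to 0.2681). Cyp3a59 under C2 was -0.0626 without HFD replicate 2 and -0.0168 when HFD+C2 replicate 1 was dropped (range -0.0626 to 0.3117). Cyp3a13 in C2 against C1 was -0.0182 with total count scaling and -0.0475 without HFD+C2 replicate 2 (range -0.0475 to 0.1866).

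Same-numbered libraries share only a number: their deviations correlated at -0.092 to 0.155. With the replicate block the diet comparison called 483 genes and 1 member, Cyp3a11 (Cyp3a13, at -0.73 and adjusted p = 0.0729, was lost, as was Cyp2c69 at adjusted p = 0.0574), C1 36 genes, C2 3 and C2 against C1 0. NCD replicate 2, with 4281210 reads in genes, limits what can be detected in the chow group.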
